A study of Mus musculus with 4 samples.

Results

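The Hox cluster genes were taken as every row of the gene table whose symbol is Hox followed by a cluster letter a, b, c or d and a paralog number. The rule found 40 of 22138 rows and 39 gene symbols, because Hoxa3 has 2 rows with different Ensembl identifiers. There were 12 rows in the Hoxa cluster, 10 in Hoxb, 9 in Hoxc and 9 in Hoxd. Paralog numbers 1 to 3 are called anterior here, 4 to 8 central and 9 to 13 posterior.

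The RNA came from TT2 mouse embryonic stem cells (C57BL/6xCBA, labelled female), a pluripotent line kept without feeders in serum and LIF. Cells received control siRNA (n = 2) or siRNA against Hnrnpk (n = 2), which encodes the RNA- and DNA-binding protein hnRNP K. Both groups were transfected at 100 nM, transfected again at 50 nM with the same siRNA 24 hours afterwards, and harvested roughly 72 hours after the second round. The design text calls the replicates biological, but all 4 libraries come from 1 cell line and a single kind of knockdown, and the sources used here do not give the number of siRNAs. Hnrnpk itself stood at 236 and 226 RPKM (reads per kilobase of gene, scaled for library depth) with control siRNA, against 68.0 and 70.5 RPKM with Hnrnpk siRNA.

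Hox genes encode homeodomain transcription factors that give cells their position along the body axis. In each cluster the genes lie in the order of their paralog numbers, and in the embryo those with low numbers are switched on earlier and further towards the head than those with high numbers. In pluripotent cells the clusters are classic targets of the Polycomb repressive complexes PRC1 and PRC2, and retinoic acid and the Cdx proteins are well known activators of them.

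No Hox row was at 0 in all 4 libraries, but nearly all were very low. There were 24 rows below 0.1 RPKM in every library, 34 below 0.5 RPKM in every library and 37 below 1 RPKM in every library, while 5 rows (Hoxb5, Hoxb6, Hoxc11, Hoxd12 and the second Hoxa3 row, ENSMUSG00000059723) were at 0 in at least 1 library. The mean over the control libraries reached 0.1 RPKM in 9 rows and 0.5 RPKM in 0. The mean over the Hnrnpk siRNA libraries reached 0.1 RPKM in 14 rows, 0.5 RPKM in 5 and 1 RPKM in 3, Hoxc13 and Hoxb13 among them. By the commonest step between low values, the libraries rest on denominators of 124200000, 121900000, 110700000 and 109500000 units (a unit is 1 read or 1 read pair), so 1 unit in a gene of 2 kb is worth 0.00403 to 0.00457 RPKM. Of the 38 rows whose units could be estimated, 9 stayed under 10 units in every library, where counting error is large. In bulk RNA, a few cells with a high level and many cells with a low level cannot be told apart.

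**Figure D1:**
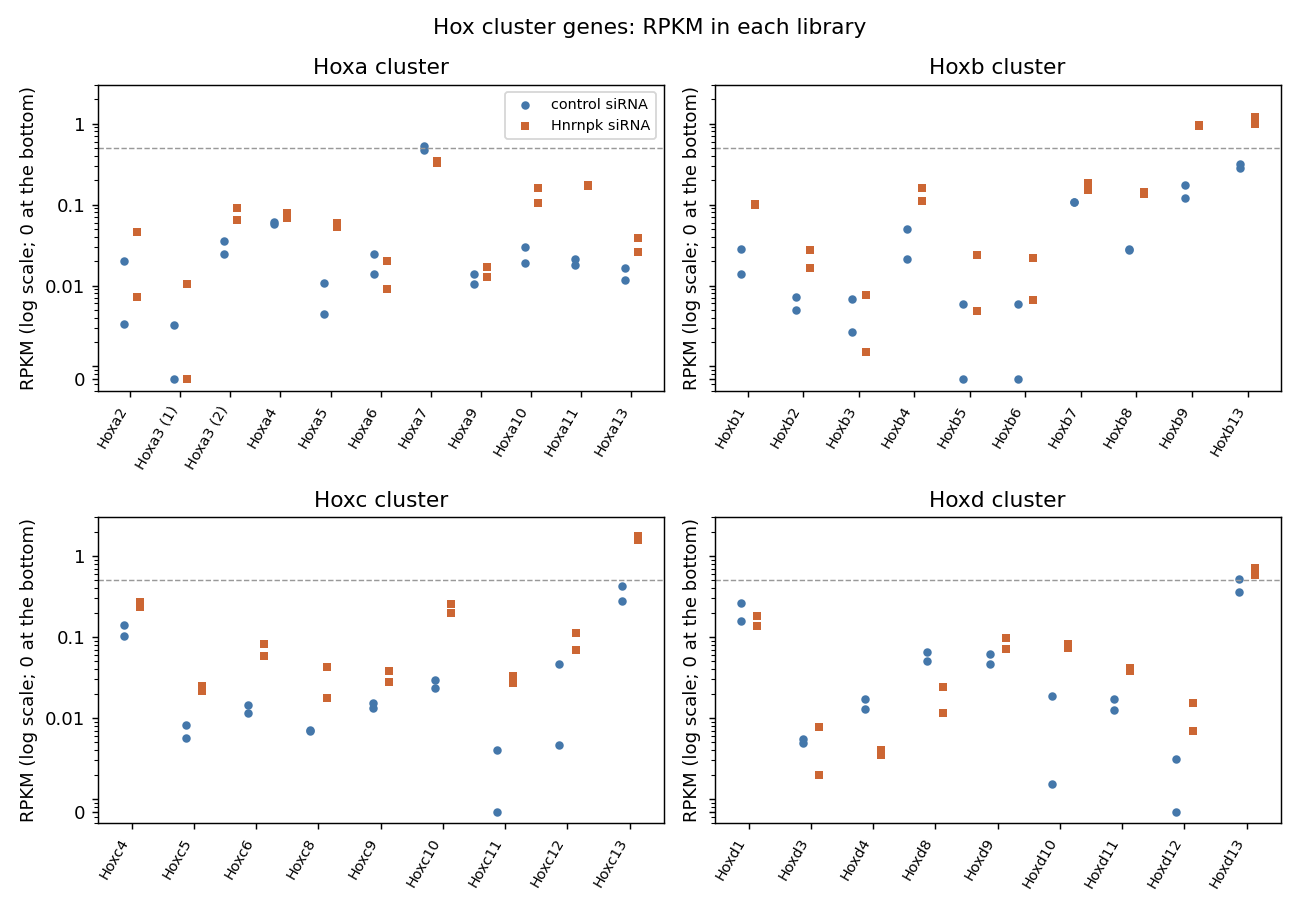
RPKM of 39 of the 40 Hox rows (log axis, with 0 drawn at the bottom) in the 2 control siRNA libraries (circles) and the 2 Hnrnpk siRNA libraries (squares), 1 panel per cluster and genes in order of paralog number. The dashed line marks 0.5 RPKM, the mean level used for the main test, and Hoxa3 (1) is the row called the second Hoxa3 row in the text. In most of the rows drawn both Hnrnpk siRNA libraries lie above both controls, and of these rows Hoxc13 and Hoxb13 pass 1 RPKM.

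The genes of paralog group 13, the last in each cluster, held the largest share of the Hox signal in both groups. Their homeoboxes are shown because the signal was spread unequally among 4 genes of like sequence. The homeobox is the 180 bases that encode the DNA-binding homeodomain, here from GENCODE M21 on GRCm38, 5′ to 3′ on the coding strand, and the 18 capitals mark the codons of the conserved stretch WFQNRR in the recognition helix.
Hoxa13: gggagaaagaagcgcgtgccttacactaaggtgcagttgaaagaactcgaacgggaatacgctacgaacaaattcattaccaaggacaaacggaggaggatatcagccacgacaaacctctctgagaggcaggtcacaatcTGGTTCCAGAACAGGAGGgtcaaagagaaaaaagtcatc
Hoxb13: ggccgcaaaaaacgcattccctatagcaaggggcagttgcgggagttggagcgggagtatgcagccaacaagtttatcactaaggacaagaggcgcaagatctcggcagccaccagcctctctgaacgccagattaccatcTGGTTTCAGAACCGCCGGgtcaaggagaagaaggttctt
Hoxc13: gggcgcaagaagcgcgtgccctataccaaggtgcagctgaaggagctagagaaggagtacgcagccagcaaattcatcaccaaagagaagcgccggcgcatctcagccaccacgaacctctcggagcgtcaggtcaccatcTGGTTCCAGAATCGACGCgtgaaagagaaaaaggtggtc
Hoxd13: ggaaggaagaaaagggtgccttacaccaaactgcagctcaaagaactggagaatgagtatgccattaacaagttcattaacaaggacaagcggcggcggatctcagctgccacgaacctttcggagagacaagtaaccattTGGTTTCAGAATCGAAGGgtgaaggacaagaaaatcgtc

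All 4 lie in exon 2 of 2. The Hoxa13 homeobox is at chr6:52258928-52259107 on the minus strand, and on the plus strand are those of Hoxb13 at chr11:96196020-96196199, Hoxc13 at chr15:102927210-102927389 and Hoxd13 at chr2:74669930-74670109. Identity within this group ran from 67.2% (Hoxb13 and Hoxd13) to 77.2% (Hoxa13 and Hoxc13), against a median of 61.1% over the 703 pairs of Hox homeoboxes, whose extremes were 46.1% and 93.9%. No pair within group 13 shared a stretch of 50 bases or more in its transcripts. Among the 38 rows with transcripts in GENCODE M21, the sole pair that shared stretches of 75 or 100 bases was Hoxc5 and Hoxc10, through 166 shared exonic bases on the same strand, so reads there cannot be told apart.

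The group 13 genes together summed to 1.13 and 1.09 RPKM in the control libraries and to 3.48 and 3.42 RPKM in the Hnrnpk siRNA libraries. Hoxc13, a gene used in hair, nail and tail formation, was at 0.428 and 0.276 RPKM in the controls and at 1.75 and 1.59 RPKM after Hnrnpk siRNA. It was the most abundant Hox transcript after Hnrnpk siRNA, and the groups lay far apart. Its log2 change was 1.35 (SE 0.112) on the log2(RPKM + 0.5) scale, with an adjusted p of 6.45e-06 in limma's moderated test across 12486 genes. The added 0.5 shrinks changes of genes at low levels, and the ratio of the raw means was 4.74.

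Hoxb13, which lies apart from the rest of its cluster and is known from the prostate and the tail bud, was at 0.319 and 0.28 RPKM in the controls and at 0.993 and 1.21 RPKM after Hnrnpk siRNA. Its groups did not overlap, and it rose by 1.0 on the log2 scale (SE 0.106; adjusted p from limma 2.81e-05). Hoxd13, needed for the digits and the genital tubercle, was at 0.361 and 0.519 RPKM in the controls and at 0.71 and 0.581 RPKM after Hnrnpk siRNA. Its higher control library lay close to its lower Hnrnpk siRNA library, and its log2 change of 0.29 (SE 0.116) did not pass the test (limma adjusted p = 0.0509). That call turned on the settings, with limma adjusted p from 0.00238 (without control replicate 2) to 0.309 (without Hnrnpk siRNA replicate 1) over the alternatives. Hoxa13, also a limb and genital gene, was at 0.0163 and 0.0116 RPKM in the controls and at 0.0256 and 0.0388 RPKM after Hnrnpk siRNA. Hoxa13 had the lowest level of group 13 in every library, and its homeobox was closest to that of Hoxc13, which had the highest level after Hnrnpk siRNA.

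Outside group 13, Hoxb9, a thoracic patterning gene at chr11:96271457-96276595 (GRCm38, plus strand), was at 0.173 and 0.12 RPKM in the controls and at 0.957 and 0.924 RPKM after Hnrnpk siRNA. Both groups were tight and far apart, and Hoxb9 rose by 1.16 on the log2 scale (SE 0.1; adjusted p from limma 8.17e-06), with a ratio of means of 6.41.

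Of the 5 Hox rows that reached a mean of 0.5 RPKM, 4 were called higher, Hoxc13, Hoxb9 and Hoxb13 among them, and 0 were called lower. Over all 12486 genes at that level 67.2% were called, 32.2% higher and 35.0% lower. All 4 had control means below 0.5 RPKM and reached the level only through the Hnrnpk siRNA libraries, so this count says nothing about the direction of Hox genes at large. The count of 0 was also 0 at an unadjusted p under 0.05. With 2 libraries in each group, an exact permutation test of any single gene cannot go below a p of 0.333.

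**Figure D2:**
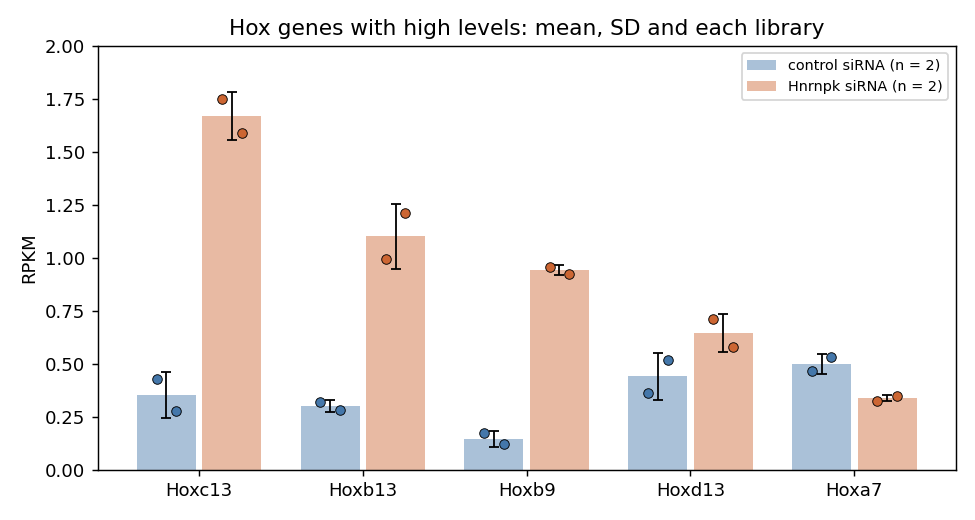
Mean RPKM (bars), SD (error bars) and each library (points) for 5 of the Hox genes with the highest means over the 4 libraries, control siRNA (n = 2) against Hnrnpk siRNA (n = 2). Hoxc13, Hoxb13 and Hoxb9 are higher after Hnrnpk siRNA, Hoxd13 is close between groups, and Hoxa7 is lower.

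The 35 rows under the filter were compared without it, in a limma fit over all 18814 genes above 0 in some library. In that fit 18 of 40 Hox rows were called higher and 2 lower. Over all genes 51.3% were called, 25.3% higher and 26.0% lower, and among the 6328 genes under 0.5 RPKM 18.1% were called higher and 14.7% lower. The median log2 change of the 40 Hox rows was 0.07 on the log2(RPKM + 0.5) scale, against 0.003 over all genes and 0.006 over genes under 0.5 RPKM. Of the 16 calls made under 0.5 RPKM, 3 held under each alternative run: Hoxa11, Hoxc10 and Hoxb8. The count of rows called higher fell to 11 without control replicate 1, to 9 without Hnrnpk siRNA replicate 1 and to 6 without Hnrnpk siRNA replicate 2. The count of rows called lower was 1, 0 and 0 without those same libraries.

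Hoxa11, a limb and uterus gene, was at 0.018 and 0.0214 RPKM in the controls and at 0.171 and 0.173 RPKM after Hnrnpk siRNA. Hoxc10, a lumbar patterning gene, was at 0.0295 and 0.0236 RPKM in the controls and at 0.199 and 0.258 RPKM after Hnrnpk siRNA. Hoxb8, a gene of the trunk and of myeloid cells, was at 0.0274 and 0.0279 RPKM in the controls and at 0.136 and 0.142 RPKM after Hnrnpk siRNA. None of these 3 overlapped between groups, and the means differed by ratios of 8.76, 8.60 and 5.01. These ratios are imprecise, because the controls held few units: 5.1 and 5.95 for Hoxa11, 7.0 and 5.5 for Hoxc10, and 8.97 in both for Hoxb8. On units estimated from the RPKM, limma with voom gave log2 changes of 3.03 (SE 0.401) for Hoxa11 and 3.0 (SE 0.406) for Hoxc10. For Hoxb8 it gave 2.27 (SE 0.373). Voom adds 0.5 to each unit value, so these changes are also shrunk somewhat where the controls held few units. The antisense gene Hoxa11os shares 800 exonic bases (35.0%) with Hoxa11 and is not in the table, so the 2 strands cannot be separated there.

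The other 11 rows called higher without the filter were Hoxa3 (the row ENSMUSG00000079560), Hoxa5, Hoxa10, Hoxb1, Hoxb4, Hoxb7, Hoxc4, Hoxc6, Hoxc11, Hoxd10 and Hoxd11. Each lost its call in at least 1 alternative. Hoxb1, a hindbrain gene, was at 0.0139 and 0.0283 RPKM in the controls and at 0.101 and 0.0978 RPKM after Hnrnpk siRNA. Hoxc4, with the highest level after Hnrnpk siRNA of these rows, was at 0.14 and 0.104 RPKM in the controls and at 0.237 and 0.273 RPKM after Hnrnpk siRNA. Hoxc11 rested on almost no reads, with 0 and 0.00406 RPKM in the controls and 0.0335 and 0.0271 RPKM after Hnrnpk siRNA, and no fold is given for it.

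The lower rows were few. Hoxa7, a thoracic gene, was the most abundant Hox transcript in the control libraries. It was at 0.466 and 0.531 RPKM there and at 0.326 and 0.346 RPKM after Hnrnpk siRNA, with no overlap. Its log2 change without the filter was -0.26 (limma adjusted p = 0.0158), and it was 0.125 without Hnrnpk siRNA replicate 1, 0.108 without Hnrnpk siRNA replicate 2 and from 0.0131 to 0.125 over the alternatives. The antisense gene Hoxaas3 covers 20.4% of the exonic bases of Hoxa7 and is not in the table. Hoxd8 was at 0.0646 and 0.0508 RPKM in the controls and at 0.0244 and 0.0116 RPKM after Hnrnpk siRNA, a ratio of means of 0.312, with limma adjusted p from 0.00668 to 0.275 over the alternatives. The Hoxd8 call was lost with GC trends removed (adjusted p = 0.205 in limma), with the replicate block and GC trends removed together (0.275), with no variance trend (0.073) and without control replicate 1 (0.0854), Hnrnpk siRNA replicate 1 (0.0765) or Hnrnpk siRNA replicate 2 (0.111). Hoxd4 was at 0.0172 and 0.0128 RPKM in the controls and at 0.00353 and 0.00404 RPKM after Hnrnpk siRNA and was not called (limma adjusted p = 0.130).

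Both Hnrnpk siRNA libraries lay above both controls in 29 Hox rows, both lay below in 3 (Hoxa7, Hoxd4 and Hoxd8), and in 8 the groups overlapped. Over all 18814 genes above 0, 39.0% lay wholly above and 37.5% wholly below. Over the 6328 of these with a mean under 0.5 RPKM, 34.5% lay wholly above and 25.8% wholly below. Of the 29 rows, 11 were not called in either direction without the filter: Hoxa4, Hoxa13, Hoxb2, Hoxb6, Hoxc5, Hoxc8, Hoxc9, Hoxc12, Hoxd9, Hoxd12 and Hoxd13, and apart from Hoxd13 none of them exceeded 0.113 RPKM (Hoxc12). The rows that overlapped were Hoxa2, the second Hoxa3 row, Hoxa6, Hoxa9, Hoxb3, Hoxb5, Hoxd1 and Hoxd3, and apart from Hoxd1 none of them exceeded 0.0452 RPKM (Hoxa2).

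By position the posterior rows stood wholly above in 15 of 16, the central rows in 10 of 15 and the anterior rows in 4 of 9. The exception among the posterior rows was Hoxa9, with 0.0104 and 0.014 RPKM in the controls and 0.0129 and 0.017 RPKM after Hnrnpk siRNA. By cluster the rows stood wholly above in 9 of 9 for Hoxc, 8 of 10 for Hoxb, 7 of 12 for Hoxa and 5 of 9 for Hoxd, which also held 2 of the 3 rows wholly below. The differences between clusters and between positions were not tested.

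**Figure D3:**
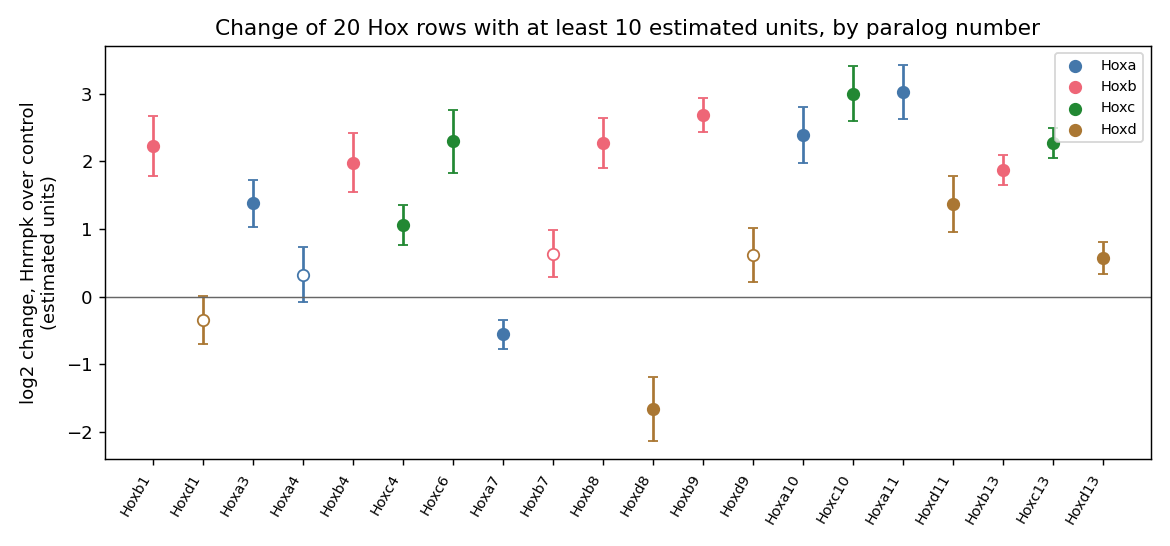
Log2 change (points) with SE (bars) from limma with voom on estimated units for 20 of the 21 Hox rows with a mean of at least 10 units, in order of paralog number and coloured by cluster. Filled points have an adjusted p under 0.05. Of the 21 rows 15 were called higher and 2, Hoxa7 and Hoxd8, lower, where 65.1% of the 15456 genes in that fit were called, 31.5% higher and 33.6% lower. Several rows called higher reached 10 units only through the Hnrnpk siRNA libraries, such as Hoxa11 (5.1 and 5.95 units in the controls) and Hoxc10 (7.0 and 5.5). This count therefore says nothing about the direction of Hox genes at large.

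Summed over all 40 rows, the level was 3.22 and 3.03 RPKM in the controls and 8.07 and 8.45 RPKM after Hnrnpk siRNA, a ratio of means of 2.65. The Hoxb sum went from 0.655 ± 0.0242 to 2.64 ± 0.18 RPKM (mean ± SD, n = 2) and the Hoxc sum from 0.57 ± 0.167 to 2.43 ± 0.00867 RPKM. Most of the Hoxc sum was Hoxc13, with means of 0.352 RPKM in the controls and 1.67 RPKM after Hnrnpk siRNA. The Hoxa sum was 1.09 ± 0.00599 against 2.14 ± 0.153 RPKM, and the Hoxd sum was 0.808 ± 0.0523 against 1.04 ± 0.0616 RPKM. The groups did not overlap in any of the 4 sums, and the ratios of means were 1.97 for Hoxa, 4.03 for Hoxb, 4.27 for Hoxc and 1.29 for Hoxd.

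Posterior rows summed to 1.5 and 1.42 RPKM in the controls and to 5.26 and 5.35 RPKM after Hnrnpk siRNA, which was 46.7% of the whole Hox level in the controls and 64.3% after Hnrnpk siRNA. Central rows summed to 0.958 and 1.01 RPKM against 1.32 and 1.39 RPKM. Anterior rows summed to 0.762 and 0.601 RPKM against 1.5 and 1.7 RPKM. The anterior sums rested on few of the 9 rows. The median anterior row had a mean of 0.0118 RPKM in the controls and 0.0262 RPKM after Hnrnpk siRNA. The 4 rows called higher in the main test, whose share was bound to be larger after Hnrnpk siRNA because they were chosen for their rise, made up 38.1% of the Hox sum in the controls and 59.5% after Hnrnpk siRNA. The 36 other rows still summed to 1.86 and 2.01 RPKM in the controls and to 3.21 and 3.48 RPKM after Hnrnpk siRNA. Among the anterior rows, Hoxd1 did not differ beyond its spread, with 0.262 and 0.156 RPKM in the controls and 0.136 and 0.184 RPKM after Hnrnpk siRNA.

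**Figure D4:**
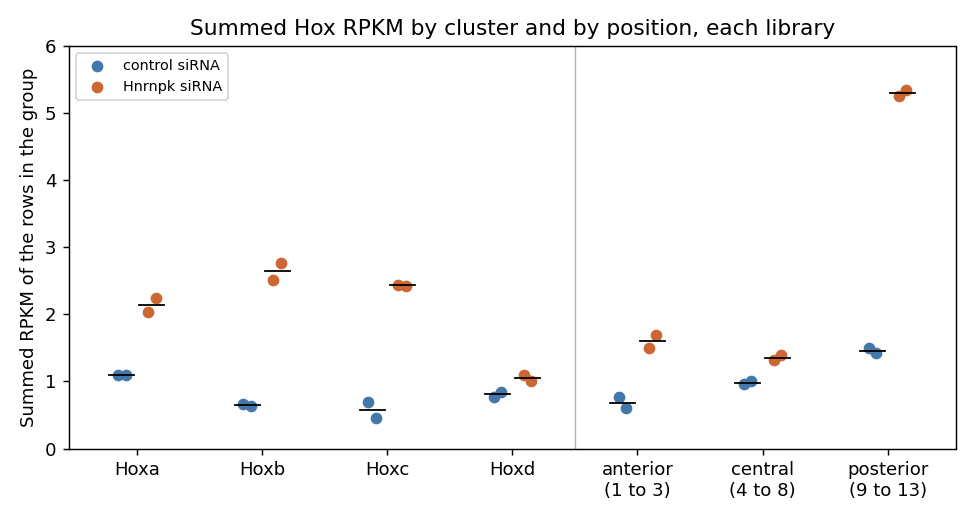
Summed RPKM of the Hox rows by cluster (left of the line) and by position (right of the line) in each library (points), with the group mean (line). The posterior sum shows the widest absolute gap, from 1.5 and 1.42 RPKM in the controls to 5.26 and 5.35 RPKM, and the Hoxd sum the narrowest among the clusters, while the ratio of means is highest for Hoxc, at 4.27.

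In embryonic stem cells, Polycomb complexes are commonly found at promoters rich in the dinucleotide CpG. RefSeq (GRCm38.p6) sequences of 250 bases before to 50 after a gene's start matched 22 of 39 symbols, with 24 promoters. They held a median of 14.5 CpG, against 7 over all 32851 promoters. Of all promoters, 34.6% held 15 or more CpG. That cut lies just above the Hox median, so the 12 of 24 Hox promoters that passed it follow from the median. The 250 bases before the start are shown for the matched genes with the highest and the lowest ratio of means among those called without the filter, Hoxa11 (chr6:52245811-52246060, minus strand) and Hoxd8 (chr2:74704365-74704614, plus strand), with each CpG in capitals.
Hoxa11: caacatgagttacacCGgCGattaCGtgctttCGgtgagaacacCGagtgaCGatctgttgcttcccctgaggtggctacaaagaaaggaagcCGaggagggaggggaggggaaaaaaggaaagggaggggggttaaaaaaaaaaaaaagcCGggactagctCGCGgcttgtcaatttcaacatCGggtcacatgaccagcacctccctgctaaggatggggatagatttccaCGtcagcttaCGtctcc
Hoxd8: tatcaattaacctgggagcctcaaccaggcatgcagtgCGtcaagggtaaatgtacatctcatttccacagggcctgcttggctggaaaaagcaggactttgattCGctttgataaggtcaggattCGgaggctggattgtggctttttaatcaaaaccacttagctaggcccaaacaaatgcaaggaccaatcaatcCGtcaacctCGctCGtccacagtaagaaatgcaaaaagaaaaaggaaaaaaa
The Hoxa11 stretch held 13 CpG and the Hoxd8 stretch 6, and a count of CpG in 2 promoters says nothing of binding there.

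Among the genes that act with or on the Hox clusters, changes went both ways. For this and each later list, the shares over all 12486 genes tested were 32.2% called higher and 35.0% lower. No list was tested against these shares. A gene could also pass the 0.5 RPKM filter through 1 group alone, as Cbx8 did through Hnrnpk siRNA and Rxrg through the controls. Of the Hox cofactors, TALE homeodomain proteins that bind DNA with Hox proteins, 2 of 7 tested rose and 3 fell. Pbx3 fell from 2.92 and 2.59 RPKM to 0.905 and 0.824 RPKM (log2 -1.25, SE 0.0958, limma adjusted p = 3.87e-06). Pbx2 also fell, by 0.18 on the log2 scale, while Pknox2 rose by 0.39 and Meis3 by 0.22. Of the ParaHox and Cdx genes, Cdx1, a caudal-type activator of Hox genes, was the only one tested, and it rose from 2.22 and 2.61 RPKM to 7.41 and 7.67 RPKM (log2 1.47, SE 0.0908, limma adjusted p = 1.17e-06). Cdx2 was under the filter, at 0.166 and 0.303 RPKM in the controls and 0.731 and 0.749 RPKM after Hnrnpk siRNA. Evx1, which lies beside Hoxa13, was at 0.0224 and 0.0342 RPKM in the controls and 0.167 and 0.202 RPKM after Hnrnpk siRNA, and Evx2, beside Hoxd13, was listed at 0 in all libraries.

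The canonical PRC1 list, whose complexes bind methylated H3K27 and ubiquitinate H2A, had 5 of 13 genes higher and 3 lower. Over all genes tested 32.2% were called higher and 35.0% lower. Phc1, a polyhomeotic subunit, fell from 351 and 347 RPKM to 195 and 186 RPKM (log2 -0.87, SE 0.0651, limma adjusted p = 3.35e-06), and Cbx7, the main chromobox subunit of embryonic stem cells, fell by 0.48 on the log2 scale. Bmi1 rose from 0.96 and 0.839 RPKM to 2.74 and 2.78 RPKM (log2 1.22, SE 0.0922, limma adjusted p = 3.59e-06), and Cbx8 rose by 0.85. Of PRC2, which methylates H3K27, 6 of 11 genes rose and 3 fell. Phf1 rose by 1.25 on the log2 scale and Aebp2 by 0.64, while Phf19 fell by 0.38. The core subunits Eed and Suz12 rose by 0.48 and 0.32, while the core subunits Ezh1 and Ezh2 fell by 0.30 and 0.18. Of the Trithorax proteins and H3K27 demethylases 2 of 8 rose, Ash2l by 0.56 and Kdm6a by 0.39, and 0 fell in limma's test.

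Of the retinoic acid pathway 4 of 11 tested genes rose and 5 fell. Crabp1, a retinoic acid binding protein, fell by 0.72 on the log2 scale, Rxrg by 0.60 and the receptor gene Rara by 0.29, while the synthesis genes Aldh1a2 and Rdh10 rose by 0.89 and 0.68. Genes that flank the clusters were higher in 9 of 16 tested and lower in 2. Beyond Hoxb13, Ttll6 (28.9 kb away in GENCODE M21) rose by 1.17 and Calcoco2 (82.4 kb away) by 2.18 on the log2 scale. Beyond Hoxc13, Calcoco1 rose by 0.74 and Atp5g2 by 0.92, and beyond Hoxc4 Hnrnpa1 fell by 1.06.

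Homeobox genes outside the clusters were compared as the most similar group. Of 95 such rows, 52 lay wholly above the controls after Hnrnpk siRNA and 27 wholly below, and of the 29 tested 14 were called higher and 10 lower. Over all 18814 genes above 0, 39.0% lay wholly above and 37.5% wholly below. Of all 12486 genes tested, 32.2% were called higher and 35.0% lower. Among the 29 tested, Nkx2-9, Msx2, Vax2 and Dlx3 rose by 3.72, 1.41, 1.11 and 1.14 on the log2 scale. Vax2, at 0.326 and 0.249 RPKM in the controls, passed the filter only through the Hnrnpk siRNA libraries. The difference between these 95 rows and the 29 above and 3 below of the Hox rows was not tested.

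Markers of other cell types differed between the groups, in both directions. All 5 tested primitive endoderm rows rose, led by Gata6 (log2 3.66). The sum over all 8 rows of the list was 5.21 to 5.27 RPKM in the controls and 30.6 to 31.3 RPKM after Hnrnpk siRNA. A second Dab2 row was at 0 in all libraries. Of the 5, Pdgfra (0.191 and 0.148 RPKM in the controls) passed the filter only through the Hnrnpk siRNA libraries. All 4 tested trophectoderm rows rose. The sum over all 7 rows of the list was 19.8 to 22.4 RPKM in the controls and 47.5 to 49.7 RPKM after Hnrnpk siRNA. Most of that sum was Krt18, at 15.8 and 18.9 RPKM in the controls and 30.9 and 33.2 RPKM after Hnrnpk siRNA. Elf5, on the same list but under the filter, was lower, at 0.105 and 0.109 RPKM in the controls and 0.0608 and 0.0705 RPKM after Hnrnpk siRNA (adjusted p = 0.0142 in limma without the filter). The streak and mesoderm list had 2 rows higher and 1 lower of 4 tested, with sums of 5.92 to 6.38 against 10.6 RPKM in both Hnrnpk siRNA libraries. Cdx1 is on that list, and without it the sums were 3.7 and 3.77 RPKM in the controls and 3.21 and 2.96 RPKM after Hnrnpk siRNA. All 3 tested neural rows and both tested fibroblast rows fell. Of all 7 neural rows 4 lay wholly below the controls and 2 wholly above (Neurog2 and Zic1). Of all 8 fibroblast rows 4 lay wholly below and 1 wholly above (Lum). Summed over all rows, the neural list stood at 20.2 to 21.6 against 8.49 to 8.86 RPKM. The fibroblast list stood at 8.34 to 9.75 against 4.29 to 4.5 RPKM. Most of these sums came from Olig2 (15.6 and 16.5 against 6.3 and 6.07 RPKM) and Thy1 (6.9 and 5.2 against 2.22 and 2.28 RPKM). Embryonic stem cell markers stayed abundant, at 2890 to 3050 RPKM in sum in the controls and 3830 to 4180 RPKM after Hnrnpk siRNA. Dppa5a, the largest of them, went from 1320 and 1280 RPKM to 2160 and 2450 RPKM, so the sums do not stand for the whole list. Of the 8 markers, Dppa5a (log2 0.83) and Nanog (log2 0.82) were called higher. Sox2 (log2 -0.53) and Tdgf1 (log2 -0.24) were called lower, and 4 were not called. The part of these cell types in the Hox values was not tested.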

How the data were processed

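RPKM values per gene were analysed as the authors deposited them, in 1 table with a column for each of the 4 libraries. The submitters' processing notes name BWA, SAMtools and the mm9 build; the sources used here do not give their roles or versions, the counting tool, the annotation or the strand setting. Per the labels, the RNA was rRNA-depleted in one field and poly(A)-selected in another.

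Limma 3.58.1 (R 4.3.3) was run on log2(RPKM + 0.5) with a mean-variance trend, over the 12486 genes whose mean reached 0.5 RPKM, with Benjamini-Hochberg adjustment over them at 0.05. The test was run on simulated data of 12486 genes, 200 of them changed, with noise drawn from the fit's own variances. It called 97% of genes changed by 0.5 and 100% of those changed by 1, with 13 false calls. The real data held 8396 calls, and genes under 0.5 RPKM were not simulated. The run therefore does not bear on the 35 Hox rows under the filter. Depth was read from the commonest step between low values. Units were RPKM times GENCODE M21 exonic length divided by that step, and need not be whole, so no count model was the main test. Sequences and positions come from GENCODE M21 (GRCm38) and RefSeq (GRCm38.p6), not from mm9. Homeoboxes were found in 38 of 40 rows by translating transcripts. The second Hoxa3 row and Hoxd4 have no match by identifier and no units.

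Named are all Hox rows with a mean of at least 0.5 RPKM, other rows by range or as examples chosen after their values were seen, and up to 5 called genes of each list, lowest p first. Cdx2, Elf5, Ezh1 and Ezh2 were added after their values were seen. Members and lists were chosen with earlier results of these data known. P-values measure the spread between these libraries. Alternatives were other added values, filters, scalings, GC trends, a replicate block, no variance trend, each library left out, and, added after seeing the data, voom on units and each choice combined with no filter. Noncoding genes of the clusters were not analysed here, and a few genes that the rule names are not reported here.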

Additional observations from a re-analysis of the deposited data

How the results depend on the processing

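Hoxc13, Hoxb9 and Hoxb13 were called higher under each alternative that tested them, and none of the 21 Hox rows run under the alternatives (those tested at a mean of 0.5 RPKM or called without the filter) changed direction. In each of these 21 rows the groups did not overlap. Leaving out 1 library or changing the added value or filter therefore could not reverse a direction. Against 4 higher and 0 lower rows, the counts were 18 and 2 with no filter, 1 and 0 with a mean of at least 1 RPKM, and 15 and 2 on estimated units. The filters changed how many rows were tested, and the estimated units changed the scale and the model too. With no filter, leaving out 1 library gave 6 to 12 rows higher (11 without control replicate 1, 9 without Hnrnpk siRNA replicate 1, 6 without Hnrnpk siRNA replicate 2) and 0 to 2 lower. The lower count with no filter was 1 with GC trends removed, 1 with the replicate block and GC trends removed together, and 1 without the variance trend; the cause was not tested. Hoxd13 was called with 0.1 RPKM added (adjusted p = 0.0466), after median-ratio scaling (0.0413) or quantile normalization (0.0435), with no variance trend (0.0339), without control replicate 2 (0.00238) and on estimated units (0.0487), in limma.

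Same-numbered libraries did not deviate together (r = 0.027 over 12486 genes). With 2 libraries a group, this cannot show whether same-numbered libraries were handled as pairs. The replicate block gave 8622 calls over all genes against 8396, with 4 Hox rows higher and 0 lower. Counts over all genes stayed within 1.5 times in each alternative run. Depth limits most the 9 rows under 10 units in every library. It also limits others, as 21 of the 38 rows with units had a mean of at least 10. Having 2 libraries a group limits every row.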
